A study of Mus musculus with 6 samples.

Results

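Immunoglobulin variable (V) segment genes encode the part of each antibody chain that binds antigen. The segments described here were selected on a count sum: they are the genes whose symbol begins with Ighv, Igkv or Iglv in the GENCODE M21 annotation and whose raw counts summed to at least 20 over 6 mice. This gave 192 of the 39179 genes in the tables, of which 93 were heavy chain (Ighv), 96 were kappa light chain (Igkv) and 3 were lambda light chain (Iglv) segments. A further 22 segments in the tables fell below the sum, 5 of them with no count in any mouse. The annotation names 348 such segments in all, and 134 of them, 122 annotated as pseudogenes, were not among the 39179 genes.

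RNA came from the bone marrow of littermate mice that were 3 months old when treatment began. The control group held 1 mouse of each of 3 genotypes. Control 1 carried the RsCDX2 allele, control 2 the Mx1Cre transgene, and control 3 was wild type. The 3 MxCDX2 mice carried both alleles (RsCDX2::Mx1Cre). RsCDX2 holds the human CDX2 coding sequence at Rosa26 behind a stop flanked by loxP sites, and Mx1Cre makes Cre recombinase from the interferon-inducible Mx1 promoter, which is active in many cell types. All 6 mice, controls included, were given poly(I:C), an inducer of interferon, in 3 intraperitoneal injections at 10 µg/g, and RNA was made 6 weeks later. As no control genotype was repeated, differences among control mice and differences among their genotypes cannot be told apart.

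A developing B cell joins 1 V segment to a joining (J) segment in each chain locus, with a diversity (D) segment between them in the heavy chain locus. The promoter of the joined V segment then drives a transcript that runs through to the constant region, so reads on a V segment come mostly from B cells and, at far higher levels per cell, from antibody-secreting plasma cells. Each V gene has a short leader exon, 1 intron and a V exon. The Ighv members lay on chromosome 12 between 113578504 and 116000461, the Igkv members on chromosome 6 between 67555497 and 70704177, and the Iglv members on chromosome 16 between 19085017 and 19260859 (GRCm38).

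The 3′ ends of the segments on which the results turn show how near the members are to each other and where they differ. Each line gives the last 60 bases of the annotated transcript in the sense direction (GENCODE M21, GRCm38), and the capitals mark the codon of the conserved cysteine that precedes the third antigen-contact loop (CDR3). The first 5 are the most abundant heavy chain segments, which in 4 of 5 cases end with the cysteine codon and 2 further codons.
Ighv1-81: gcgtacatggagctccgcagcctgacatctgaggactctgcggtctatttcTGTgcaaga
Ighv1-26: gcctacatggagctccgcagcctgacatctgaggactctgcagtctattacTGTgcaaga
Ighv9-3: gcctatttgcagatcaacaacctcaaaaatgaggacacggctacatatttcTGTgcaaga
Ighv1-64: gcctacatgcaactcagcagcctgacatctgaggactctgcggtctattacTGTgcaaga
Ighv3-6: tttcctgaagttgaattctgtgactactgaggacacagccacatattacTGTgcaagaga
The next 5 are the most abundant kappa segments, which add a longer stretch of CDR3 after the cysteine. Igkv1-110 and Igkv1-117 share 96.9% of 290 compared bases.
Igkv1-110: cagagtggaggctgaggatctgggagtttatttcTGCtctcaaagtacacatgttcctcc
Igkv10-96: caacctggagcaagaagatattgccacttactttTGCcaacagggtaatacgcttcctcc
Igkv1-117: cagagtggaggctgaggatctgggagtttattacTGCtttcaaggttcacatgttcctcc
Igkv1-135: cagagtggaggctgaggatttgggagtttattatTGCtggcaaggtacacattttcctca
Igkv14-111: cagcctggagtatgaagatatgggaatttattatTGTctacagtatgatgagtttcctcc
The 3 lambda segments follow. Iglv1 and Iglv2 share 97.6% of the compared bases, and Iglv3 shares 51.4% with Iglv1.
Iglv1: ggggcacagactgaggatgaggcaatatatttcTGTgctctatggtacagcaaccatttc
Iglv2: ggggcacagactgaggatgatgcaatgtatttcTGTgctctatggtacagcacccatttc
Iglv3: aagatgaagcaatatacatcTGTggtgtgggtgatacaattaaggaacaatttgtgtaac
The last 4 are the segments with the lowest log2 fold changes among the more abundant of those called lower in MxCDX2 mice.
Ighv11-2: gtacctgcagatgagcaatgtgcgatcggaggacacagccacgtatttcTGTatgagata
Igkv14-126: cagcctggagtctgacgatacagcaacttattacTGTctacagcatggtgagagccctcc
Igkv2-112: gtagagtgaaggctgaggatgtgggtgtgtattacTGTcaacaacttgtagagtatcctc
Ighv6-7: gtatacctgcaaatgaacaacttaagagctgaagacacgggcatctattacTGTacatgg

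The tables held between 38646101 and 49899650 reads on genes per mouse. Mouse Cdx2, on which reads of the human sequence would be counted if anywhere, had 5.11, 0 and 0 normalized counts in the control mice and 161, 152 and 159 in the MxCDX2 mice. Values are listed here and below in the order of mice 1, 2 and 3 of each group. Normalized counts are counts scaled to the mean library size after TMM normalization. The composition of the marrow differed between the groups: 4 of 4 erythroid markers were lower and 4 of 4 monocyte markers were higher in MxCDX2 mice, 1 of 4 neutrophil markers (Ltf) was lower, and 0 of 6 T cell markers passed with edgeR (1 at an unadjusted p below 0.05, and 1 with DESeq2). The part of this change in the values below was not tested, and in bulk marrow fewer cells of a type and less RNA per cell cannot be told apart.

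V segments took between 0.109% and 0.619% of all reads counted on genes. Total Ighv expression varied over 6.28-fold among the 6 mice, total Igkv expression over 7.24-fold and total Iglv expression over 3.63-fold. In the control group, mice 1, 2 and 3 had normalized Ighv totals of 136720, 43836 and 56057, and the MxCDX2 mice in the same order had 98628, 21757 and 42938. The highest value belonged to a control mouse and the second highest to an MxCDX2 mouse, so the groups overlapped. The difference between groups was a log2 fold change of -0.53 (standard error 0.63, 95% interval -2.03 to 0.96, adjusted p = 0.591 with edgeR's quasi-likelihood test). The Igkv total was 162639, 45202 and 67931 in the control mice and 108875, 22467 and 46441 in the MxCDX2 mice, again with control 1 and MxCDX2 mouse 1 on top and MxCDX2 mouse 2 lowest. Its log2 fold change was -0.63 (standard error 0.67, 95% interval -2.21 to 0.95, edgeR adjusted p = 0.544). Neither total passed the test, and the intervals hold both a 2-fold fall and no change. Without control 1, which had the highest values, the log2 fold changes turned to 0.13 for Ighv and 0.08 for Igkv.

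The Iglv total was lower in MxCDX2 mice. It was 7887, 4707 and 4629 normalized counts in the control mice and 3664, 2173 and 2709 in the MxCDX2 mice, with no overlap between the groups. The log2 fold change was -1.01 (standard error 0.27, 95% interval -1.66 to -0.36, edgeR adjusted p = 0.0395), just past the threshold of 1. The call was lost in the fits without MxCDX2 mouse 2 (adjusted p = 0.118), MxCDX2 mouse 3 (0.129), control 1 (0.0821) and control 2 (0.0506), in all of which the direction stayed the same. Iglv1, which supplied 75.8% to 85.3% of the Iglv counts in each mouse, had 6451, 3568 and 3786 normalized counts in the control mice and 2899, 1822 and 2315 in the MxCDX2 mice. All 3 MxCDX2 mice lay below the controls, but its log2 fold change of -0.97 (standard error 0.28, edgeR adjusted p = 0.0484) did not reach the fold threshold. Iglv2 had 874, 701 and 339 against 526, 195 and 219, with overlap, and a log2 fold change of -1.02 (edgeR adjusted p = 0.191). Iglv3 had 521, 441 and 501 in the control mice and 227, 166 and 181 in the MxCDX2 mice, and was called lower at a log2 fold change of -1.35 (standard error 0.21, edgeR adjusted p = 0.00653). Its values differed little within either group, and it stayed called in all 6 fits that left out 1 mouse.

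**Figure D1:**
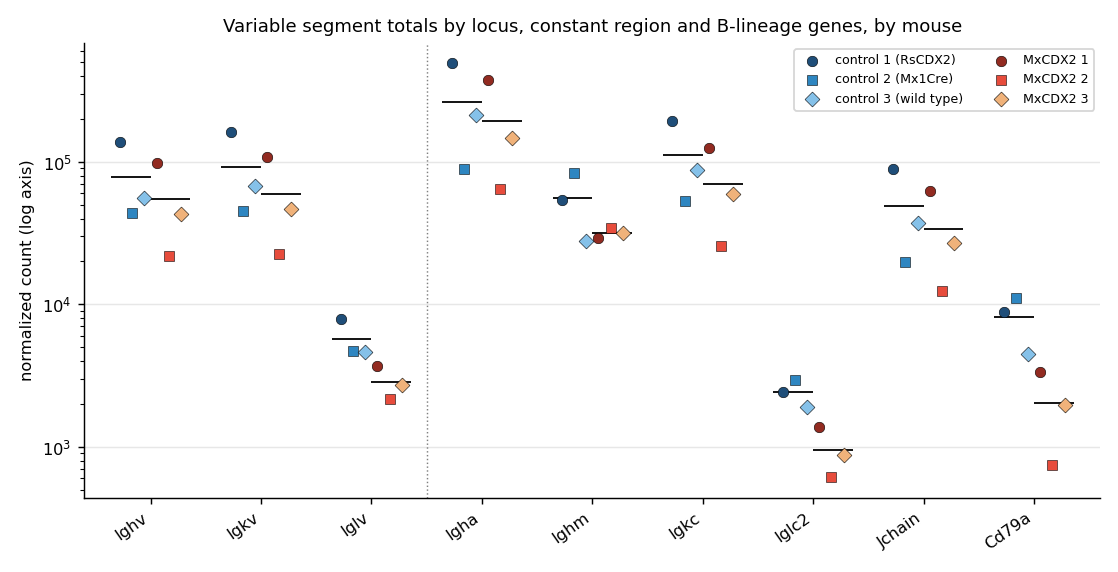
Normalized counts (log axis) of the 3 V segment totals, of constant region genes (Igha, Ighm, Igkc, Iglc2), of the plasma cell gene Jchain and of the B cell gene Cd79a, with 1 point per mouse and a horizontal line at each group's mean. In the Ighv, Igkv, Igha, Igkc and Jchain values control 1 is highest, MxCDX2 mouse 1 next and MxCDX2 mouse 2 lowest, whereas all 3 MxCDX2 mice lie below all 3 control mice for Iglv, Iglc2 and Cd79a.

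The Ighv and Igkv totals kept a nearly fixed ratio to the constant regions they are joined to. Igkv counts per count of Igkc, the only kappa constant gene, were 0.841, 0.851 and 0.775 in the control mice and 0.865, 0.884 and 0.786 in the MxCDX2 mice. The ratio moved little over mice whose Igkv totals spanned 7.24-fold. Ighv counts per heavy chain constant count lay between 0.202 and 0.241, and Igkv counts per Ighv count between 1.03 and 1.21. For both ratios to a constant region the two-sided exact permutation test between groups gave p = 0.5 (0.889 after adjustment over 16 ratios), in a design that cannot go below 0.1. Iglv counts per count of Iglc2, the lambda constant gene with values here, ranged more widely, from 1.60 in control 2 to 3.56 in MxCDX2 mouse 2. The other listed lambda constant genes, Iglc1 and Iglc3, had no values. This ratio thus sets all Iglv counts against only part of the lambda constant genes and cannot be compared with the kappa ratio.

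The Ighv and Igkv totals also moved with Jchain, a plasma cell gene whose product links IgA and IgM into polymers, and which is singled out here among 9 listed plasma cell genes. Ighv counts per Jchain count were 1.52, 2.22 and 1.51 in the control mice and 1.58, 1.77 and 1.61 in the MxCDX2 mice. This ratio spanned 1.47-fold over the 6 mice and that of Igkv 1.32-fold, but that of Iglv 4.08-fold. The other plasma cell genes differed in how they ranked the mice. Like the totals, Mzb1 and Derl3 had control 1 highest, MxCDX2 mouse 1 next and MxCDX2 mouse 2 lowest. Mzb1 had 2659, 2133 and 1772 normalized counts in the control mice and 2185, 458 and 859 in the MxCDX2 mice. Tnfrsf17 also had control 1 highest and MxCDX2 mouse 2 lowest, while Irf4 and Prdm1 had orders of their own. Sdc1 (CD138), a surface proteoglycan of plasma cells, had 1624, 1120 and 1195 normalized counts in the control mice and 2612, 4533 and 3305 in the MxCDX2 mice, so that MxCDX2 mouse 2, the lowest in Ighv and Igkv, was the highest in Sdc1. Xbp1 and Tnfrsf13b were likewise higher in all 3 MxCDX2 mice than in the controls. With Cd79a, singled out here among 11 listed B cell genes, the picture was another one. Ighv counts per count of Cd79a, a signaling chain of the B cell receptor, were 15.4, 3.93 and 12.4 in the control mice and 29.2, 29.2 and 21.8 in the MxCDX2 mice. The values of the groups did not overlap, with p = 0.1 in the exact permutation test, the smallest that 3 mice against 3 can give, and 0.4 after adjustment over the 16 ratios. Igkv per Cd79a gave 18.3, 4.05 and 15.0 against 32.2, 30.1 and 23.6, again with no overlap (exact permutation p = 0.1, adjusted 0.4). Control 2, the Mx1Cre mouse, had the lowest ratio by far, with the most Cd79a of the 6 mice and the lowest Ighv total among the controls. Iglv per Cd79a gave 0.887, 0.422 and 1.02 in the control mice and 1.08, 2.91 and 1.37 in the MxCDX2 mice. Its groups did not overlap either (exact permutation p = 0.1, adjusted 0.4), and it spanned 6.91-fold over the 6 mice, more than Iglv per Jchain. These 3 ratios divide by the same Cd79a counts and are not separate results. Cd79a itself had 8847, 11168 and 4514 normalized counts in the control mice and 3372, 749 and 1976 in the MxCDX2 mice, with no overlap.

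The lineage genes themselves also differed by list. In the B cell list 9 of 11 genes were called lower in MxCDX2 mice, with Cd79a at a log2 fold change of -2.01 (edgeR adjusted p = 0.0486) and Fcer2a, a receptor of mature B cells, at -2.75 (edgeR adjusted p = 0.00578). In the pro-B and pre-B list 2 of 8 were called lower, namely Il7r and Vpreb2, a part of the surrogate light chain. All 8 had negative log2 fold changes, with a median of -1.59, where the median of the B cell list was -2.01. In the plasma cell list 0 of 9 were called lower by edgeR, by DESeq2 or at an unadjusted p below 0.05, and 1 was called higher, Sdc1, at 1.41 (edgeR adjusted p = 0.00939). Xbp1, a regulator of antibody secretion, at 0.88 (edgeR adjusted p = 0.0460) and Tnfrsf13b, a receptor for B cell survival factors, at 0.51 (edgeR adjusted p = 0.0400) passed the p threshold but not the fold threshold, which made 3 higher at an unadjusted p below 0.05. The directions in this list were mixed, with 5 of the 9 log2 fold changes negative and none of these 5 called. They were Mzb1 at -0.91, Tnfrsf17 at -0.65, Derl3 at -0.55, Jchain at -0.53 (edgeR adjusted p = 0.645) and Irf4 at -0.19. Over these 28 genes 11 were called lower, where 9.03% of the 15980 tested genes were. The count fell to 3 without control 2 and to 4 without control 1, MxCDX2 mouse 2 or MxCDX2 mouse 3. Lower calls over all tested genes fell as well, from 1443 to 1260 without control 2. They were 1140, 889 and 694 without control 1, MxCDX2 mouse 2 and MxCDX2 mouse 3 in turn. Of 12 listed constant region genes 9 had values and 2 were called lower: Ighg3, an IgG subclass often made without T cell help, at -2.50 (edgeR adjusted p = 0.00855), and Iglc2 at -1.35 (edgeR adjusted p = 0.0261). Iglc2 lost its call without control 1, control 2, MxCDX2 mouse 2 or MxCDX2 mouse 3, and Ighg3 kept its call whichever mouse was left out. Igha, the IgA heavy chain, made up 86.9%, 44.3% and 86.2% of heavy chain constant counts in the control mice and 88.8%, 59.3% and 74.8% in the MxCDX2 mice.

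Of the 192 members 179 passed the filter on low counts and were tested one by one. The other 13 had count sums between 20 and 179. A segment was called when its adjusted p fell below 0.05 and its log2 fold change went beyond 1 in either direction. Of the 179, edgeR called 8 lower (4.47%, against 9.03% of all tested genes) and 0 higher (against 4.59% of all tested genes). At an unadjusted p below 0.05, 22 were lower and 2 were higher, where 3101 and 2660 of the 15980 tested genes were. DESeq2 gave an adjusted p to 187 members and called 21 lower (11.2%, against 10.9% of the 18508 genes with an adjusted p) and 1 higher, Ighv1-37 (0.535%, against 4.74%). All 3 MxCDX2 mice lay below all 3 control mice in 17 segments (9.50%, against 20.7% of all tested genes) and above them in 1 (0.559%, against 21.4%).

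The direction was nonetheless mostly one way, with 149 negative and 30 positive log2 fold changes and a median of -0.62, where the median of all tested genes was 0.0021. These segments share their mice and their cells, so the count of signs is not a count of independent results. The spread between mice was wide. The median SD of log2 counts within a group was 1.23 for the members and 0.268 for all tested genes, and the median half-width of the 95% interval of a log2 fold change was 1.86 against 0.537. The interval was of like width for Igha (-2.34 to 1.45), Igkc (-2.26 to 0.93) and Jchain (-2.23 to 1.18). In 155 of the 179 segments that interval included 0. The highest value of a segment was in control 1 in 113 cases and in MxCDX2 mouse 1 in 40, and the lowest in MxCDX2 mouse 2 in 115. The count of 8 depended on single mice: it was 1 without MxCDX2 mouse 3, 2 without MxCDX2 mouse 2, 4 without control 1, and 13 without MxCDX2 mouse 1 or without control 3. Lower calls over all tested genes moved too, from 1443 with every mouse to 694, 889 and 1140 in the first of these fits. Without MxCDX2 mouse 1 they were 1117, and without control 3 they were 1482.

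**Figure D2:**
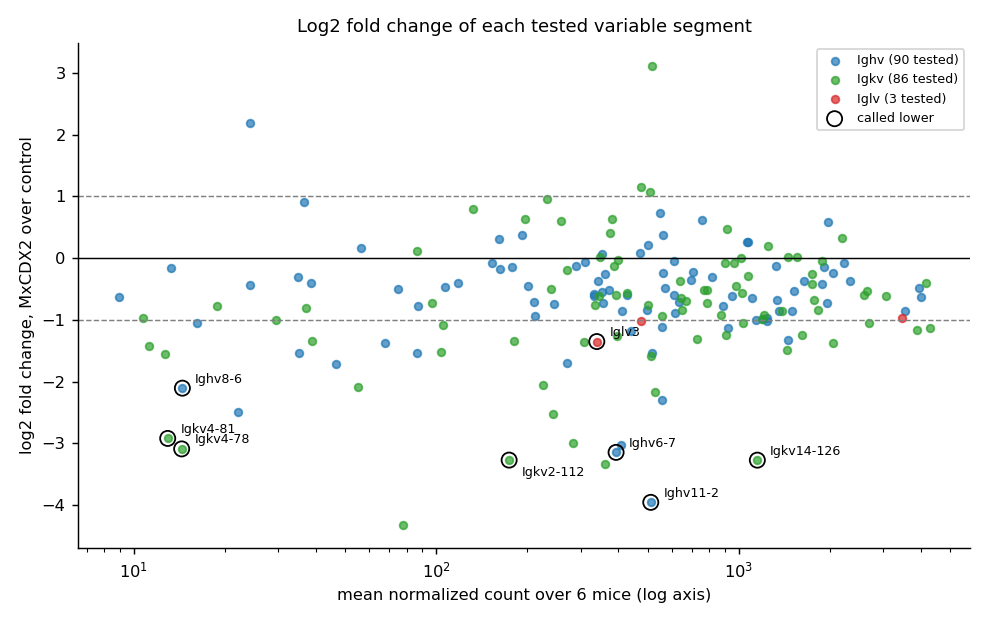
Log2 fold change of MxCDX2 over control mice (y axis) against the mean normalized count over 6 mice (x axis, log scale), with 1 point per tested segment coloured by locus, dashed lines at the fold threshold and open circles around the 8 segments called lower. Of the 179 points 100 lie between -1 and 0, the median is -0.62, and the called segments lie at or below -1.35.

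The lowest log2 fold change among the called segments was that of Ighv11-2, on chromosome 12 from 114048241 to 114048812. It had 693, 1894 and 297 normalized counts in the controls, against 126, 53.9 and 6.96 in the MxCDX2 mice. Control 2 was highest and the groups did not overlap. The log2 fold change was -3.96 (standard error 1.08, edgeR adjusted p = 0.0433). Ighv11-2 is known from antibodies to phosphatidylcholine made by B-1 cells, innate-like B cells, in which it pairs with Igkv14-126. That kappa segment, on chromosome 6 from 67896172 to 67896642, was called lower as well. It had 1956, 3544 and 760 normalized counts in the control mice and 354, 82.3 and 212 in the MxCDX2 mice. Control 2 was again highest, all MxCDX2 mice were below all controls, and the log2 fold change was -3.27 (standard error 0.72, edgeR adjusted p = 0.0213). Igkv14-126 lost its call without MxCDX2 mouse 2 or MxCDX2 mouse 3. Ighv11-2 lost it in 4 of 6 such fits and kept it without MxCDX2 mouse 1 and without control 3.

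The shares of this pair within their loci varied widely among the controls. Ighv11-2 held 0.509%, 4.32% and 0.531% of Ighv counts in the control mice and 0.128%, 0.247% and 0.0162% in the MxCDX2 mice. Igkv14-126 held 1.21%, 7.84% and 1.12% of Igkv counts in the control mice and 0.326%, 0.365% and 0.456% in the MxCDX2 mice. In both, the Mx1Cre mouse stood 17.5-fold (Ighv11-2) and 17.2-fold (Igkv14-126) above the median of the other mice, and the shares of the groups did not overlap. Both had been picked for their lower calls. Of the 189 Ighv and Igkv members, 12 (6.35%) had lower shares in all MxCDX2 mice than in all controls, and 8 (4.23%) had higher ones. Another pair known from the same antibodies, Ighv12-3 and Igkv4-91, was looked up after the values of the first were seen. Ighv12-3 had 35.8, 68.5 and 8.21 normalized counts in the control mice and 11.7, 2.94 and 5.22 in the MxCDX2 mice (log2 fold change -2.50, edgeR adjusted p = 0.0826). Igkv4-91 had 2592, 356 and 532 against 3115, 217 and 652, at a log2 fold change of 0.20 (edgeR adjusted p = 0.918), so this second pair did not pass and its 2 members did not share a direction.

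Igkv2-112, on chromosome 6 from 68219981 to 68220706, was the other abundant kappa segment called lower. It had 409, 372 and 166 normalized counts in the control mice and 15.9, 62.7 and 19.2 in the MxCDX2 mice, which gave a log2 fold change of -3.27 (standard error 0.65, edgeR adjusted p = 0.0155). The groups did not overlap, and the call was kept in 5 of 6 fits that left out 1 mouse, the exception being MxCDX2 mouse 3. Ighv6-7, on chromosome 12 from 114455626 to 114456083, had 1475, 356 and 288 against 71.0, 83.3 and 84.4, at a log2 fold change of -3.15 (edgeR adjusted p = 0.0196). Its MxCDX2 values were close together, while control 1 stood far above the other controls. Its call held in 3 of 6 fits lacking 1 mouse.

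The remaining called segments were rare. Igkv4-78 had 40.9, 14.9 and 21.9 normalized counts in the control mice and 5.30, 0 and 3.48 in the MxCDX2 mice (log2 fold change -3.09, edgeR adjusted p = 0.0410). Igkv4-81 had 28.1, 30.8 and 10.0 against 4.24, 1.96 and 2.61 (log2 fold change -2.92, edgeR adjusted p = 0.0174). Ighv8-6 had 12.8, 16.9 and 41.0 against 3.18, 7.84 and 5.22 (log2 fold change -2.11, edgeR adjusted p = 0.0493). These 3 lay apart between groups but rested on count sums of 80, 73 and 89, and Igkv4-78 and Ighv8-6 lost their call whichever mouse was left out. Igkv4-81 was still called in 2 of the 5 fits lacking 1 mouse in which it was tested. Together the 8 called segments held 1.68%, 7.11% and 1.62% of all V segment counts in the control mice and 0.383%, 0.982% and 0.558% in the MxCDX2 mice.

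**Figure D3:**
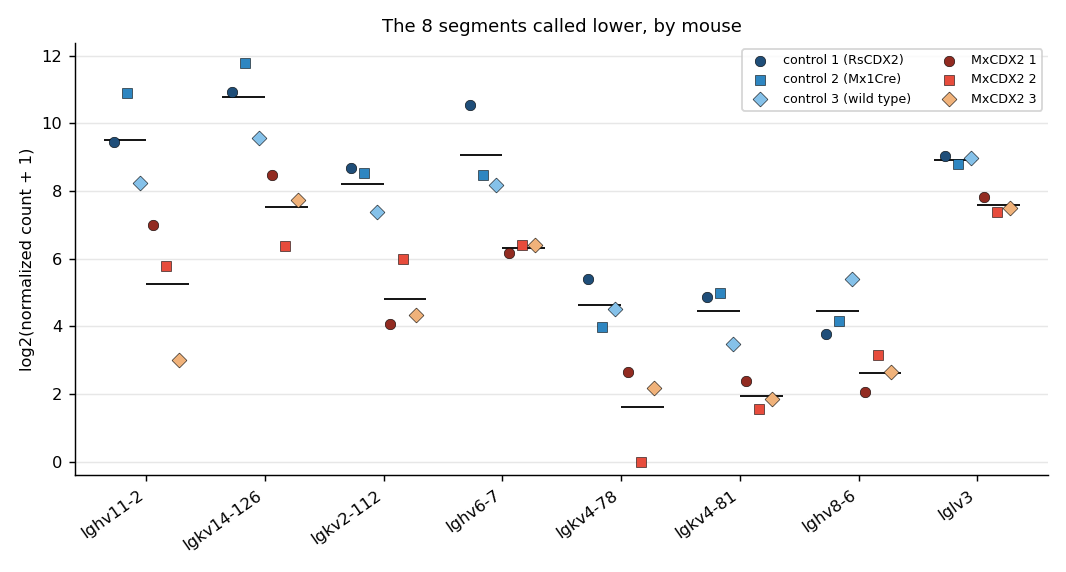
The 8 segments called lower, as log2(normalized count + 1) for each of 6 mice, with a horizontal line at the mean of each group on this scale. The groups lie apart in every one of them, but the segments were chosen by a test on these same values. The highest control is the Mx1Cre mouse for Ighv11-2 and Igkv14-126, and Iglv3 has the least spread within groups.

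The most abundant segments did not pass the test. Among the heavy chain segments, Ighv1-26 had 9424, 1990 and 2388 normalized counts in the control mice and 6577, 896 and 2432 in the MxCDX2 mice (log2 fold change -0.48, edgeR adjusted p = 0.728). Ighv1-81 had 5614, 6752 and 2188 against 5843, 1121 and 2444 (log2 fold change -0.63, edgeR adjusted p = 0.532). Ighv9-3 had 8088, 2459 and 3165 against 4307, 1499 and 1768 (log2 fold change -0.86, edgeR adjusted p = 0.331). In all of these the groups overlapped and the values within the controls spanned more than 3-fold. Ighv1-64 and Ighv3-6 had log2 fold changes of -0.37 and -0.07, the latter with an interval of -1.09 to 0.95.

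Among the kappa segments, Igkv1-117 came nearest to a call. It had 6471, 5079 and 4548 normalized counts in the control mice and 3484, 1075 and 2602 in the MxCDX2 mice, with no overlap, and a log2 fold change of -1.17 (standard error 0.40, edgeR adjusted p = 0.0832). Igkv1-110 had 9561, 4711 and 3374 against 4393, 1632 and 2017 (log2 fold change -1.13, edgeR adjusted p = 0.155), with overlap. Igkv10-96, Igkv1-135 and Igkv14-111 had log2 fold changes of -0.40, -0.61 and -1.05 and did not pass either. At the other end, the segments with log2 fold changes nearest to 0 at a mean of at least 100 normalized counts were Igkv4-72 (-0.0001), Igkv3-2 (0.01) and Igkv9-124 (0.02). Igkv4-72 had 1666, 610 and 775 normalized counts against 1475, 675 and 899. Such a value near 0 was not a precise one for Igkv9-124, whose interval ran from -2.80 to 2.84 and whose values were 2891, 1097 and 337 against 3659, 578 and 138. The highest log2 fold change of all was 3.12 for Igkv1-122 (edgeR adjusted p = 0.130), a segment picked out after its values were seen, with 2281, 31.3 and 461 normalized counts in the MxCDX2 mice and 64.7 to 143 in the controls. It passed the test as higher only without MxCDX2 mouse 2, among the 6 fits that left out 1 mouse.

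Segments fall into families by sequence, which are the part of the symbol before the hyphen. With counts summed by family, 3 of 33 tested families were called lower, where 9.35% of all rows tested in that table were, and 0 were called higher, where 4.7% were (0 also with DESeq2 and at an unadjusted p below 0.05). They were Iglv3 and Ighv11, each with 1 member here, and Ighv4, whose 1 member is Ighv4-1. Ighv4 had 1559, 972 and 257 normalized counts in the control mice and 185, 272 and 107 in the MxCDX2 mice (log2 fold change -2.30, edgeR adjusted p = 0.0475). Its groups overlapped, with control 3 below MxCDX2 mouse 2, and Ighv4-1 in the table of single segments was at an adjusted p of 0.0514, just outside the threshold. No family with more than 1 member was called by edgeR, whereas DESeq2 called 7 of 36 families lower (19.4%, against 10.9% of the 18400 rows with an adjusted p), among them Igkv14 and Igkv2, and 0 higher (against 4.76%). Without control 1, MxCDX2 mouse 2 or MxCDX2 mouse 3 the count was 1 family, Iglv3, and without control 3 it was 6. Over all rows of that table lower calls went from 1480 to 1184, 921, 745 and 1512 in these fits, in the same order.

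Ighv1, the largest family with 48 members, held 56.8%, 58.0% and 59.3% of Ighv counts in the control mice and 62.0%, 52.6% and 58.5% in the MxCDX2 mice. The mean was 58.0% ± 1.24 (SD, n = 3) in the control mice and 57.7% ± 4.76 (SD, n = 3) in the MxCDX2 mice, with p = 0.9 in the exact permutation test. Ighv5, Ighv9 and Ighv3 were the other heavy chain families above 5%, and with Ighv1 they held 80.9% of Ighv counts on average. Ighv3 was at 3.72%, 4.07% and 4.03% in the control mice and 4.41%, 7.75% and 6.10% in the MxCDX2 mice, with no overlap (exact permutation p = 0.1, the smallest possible, and 0.66 after adjustment over 33 families). That smallest p was reached by 4 of 14 Ighv and 1 of 19 Igkv families, all with the same exact permutation p of 0.66 after adjustment. Ighv11 and Ighv12 among them have 1 member each here. In the kappa locus 9 of 19 families held at least 5% and 86.9% of counts between them. Igkv1, with 9 members, held 13.8% to 25.7%, and Igkv4, with 27 members, held 12.1% to 16.9%. Lambda segments made up 4.63%, 9.43% and 6.38% of light chain V counts in the control mice and 3.26%, 8.82% and 5.51% in the MxCDX2 mice, which overlapped (exact permutation p = 0.7). No difference in the lambda share was thus detectable in this design.

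Usage was spread over many segments in every mouse. The effective number of segments is the number of equally used segments that would give the same Shannon entropy. For Ighv it was 53.1, 45.7 and 50.1 in the control mice and 49.0, 50.2 and 49.8 in the MxCDX2 mice, out of 93 members (difference of means 0.05, exact permutation p = 0.9). For Igkv it was 49.7, 42.3 and 49.9 in the control mice and 49.3, 47.4 and 51.0 in the MxCDX2 mice, out of 96 (difference of means 1.93, exact permutation p = 0.7). Adjusted over 14 usage measures, the smallest p was 0.969. Between 13 and 16 heavy chain segments and between 11 and 14 kappa segments supplied 50% of the counts of their locus. With 22307 to 106438 Ighv counts per mouse and 23035 to 126616 Igkv counts, all 93 Ighv members had a count in every mouse, and 89 to 96 of the Igkv members did.

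The mouse that stood apart in usage was control 2, the Mx1Cre control. It had the lowest effective number in both loci. Its leading heavy chain segment Ighv1-81, on chromosome 12 from 115920279 to 115920712, held 15.4% of Ighv counts, while it held 3.91% to 5.94% in the other mice. Its leading kappa segments Igkv1-117 and Igkv1-110 held 11.2% and 10.4%, and no segment exceeded 7.23% of its locus in any other mouse. The leading segments elsewhere were Ighv1-26, Ighv9-3 or Ighv1-81 for the heavy chain and Igkv1-110, Igkv1-117 or Igkv10-96 for kappa, so the same few segments led in both groups. Without control 2 the difference of the Ighv effective number between groups turned from 0.05 to -1.92 and that of the largest Ighv share from -2.92 to 0.12 percentage points.

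**Figure D4:**
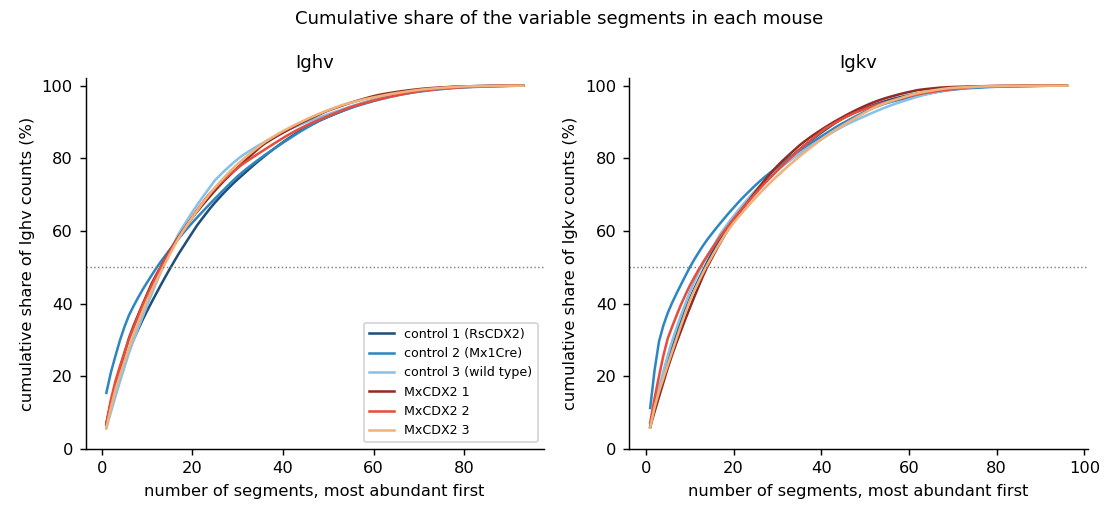
Cumulative share of Ighv (left) and Igkv (right) counts against the number of segments, most abundant first, with 1 line per mouse and a dotted line at 50%. The lines of both groups run together, and control 2 (Mx1Cre) starts above the others, at 15.4% for Ighv and 11.2% for Igkv.

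Usage was about as alike between mice of different groups as between mice of the same group. Spearman's rho of the segment shares between pairs of mice, over the 93 Ighv segments, ranged from 0.81 to 0.86 in 6 pairs within a group and from 0.76 to 0.87 in 9 pairs between groups. Over the 96 Igkv segments it ranged from 0.76 to 0.88 within groups and from 0.78 to 0.88 between groups. These are descriptions, since each mouse enters several pairs and related segments can share reads. Of the 189 Ighv and Igkv members, 23 were high in 1 mouse, meaning at least 1% of the locus and at least 3 times the median of the other 5 mice. Control 2 held 8 of them, the most, and each other mouse held 1 to 5. Beside Ighv11-2 and Igkv14-126, the largest were Igkv1-122 with 2.10% in MxCDX2 mouse 1 against a median of 0.139% in the others, and Ighv7-1 with 1.68% in MxCDX2 mouse 2 against 0.142%. Both were picked out after their values were seen.

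Position within the locus was examined as distance from the first J segment. The 3 equal bins of Ighv segments, nearest, middle and farthest, held 29.2% to 32.1%, 29.0% to 34.9% and 33.1% to 40.1% of Ighv counts, with overlap between groups in each (smallest exact permutation p = 0.4). In the kappa locus the farthest 32 segments held 45.0%, 56.2% and 48.1% in the control mice and 42.9%, 44.7% and 43.1% in the MxCDX2 mice. The groups did not overlap, with p = 0.1 in the exact permutation test, the smallest this design can give, and 0.533 after adjustment over 8 comparisons. That bin holds Igkv14-126, Igkv1-117 and Igkv1-110, which were high in control 2. Kappa segments lie in both orientations, and the 35 on the same strand as the J segments held 42.8%, 52.9% and 48.5% in the control mice and 39.0%, 39.8% and 43.0% in the MxCDX2 mice, with overlap (exact permutation p = 0.2).

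**Figure D5:**
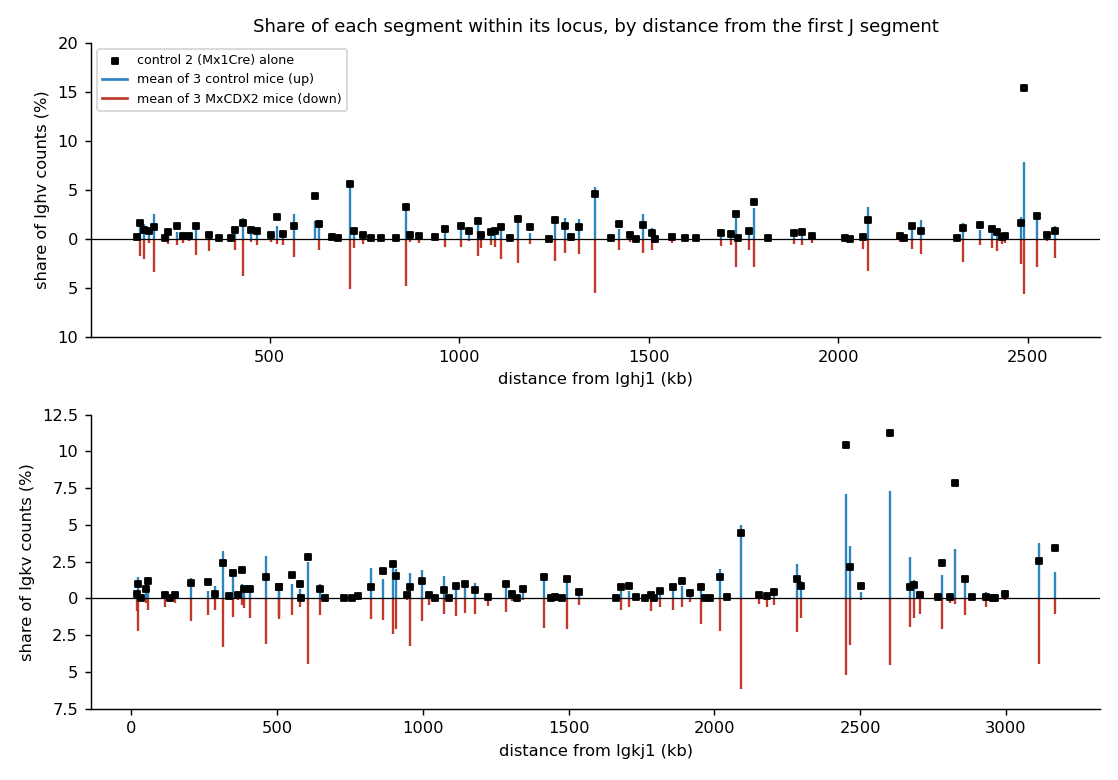
Share of each Ighv (top) and Igkv (bottom) segment in the counts of its locus, against its distance from the first J segment in kb, with the mean of 3 control mice drawn upward, the mean of 3 MxCDX2 mice downward, and black squares for control 2 alone. Many of the tall segments are tall in both groups, and others have unlike means. Ighv3-6 has means of 2.97% and 4.84%, with overlap, as MxCDX2 mouse 1 (2.98%) lies inside the control range of 2.79% to 3.22%. Control 2 stands highest at Ighv1-81 with 15.4% and at Igkv1-117 with 11.2%.

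Many members resemble one another, which bears on how reads are divided among them. The median identity to the nearest annotated segment, over 290 bases, was 95.5% for Ighv and 94.5% for Igkv members, and 22 Ighv and 14 Igkv members exceeded 97%. In 11 Ighv and 14 Igkv members fewer than 50% of the 50-base stretches of the transcript were found in no other V segment. Values of single segments in such groups are uncertain. Of the called segments, Ighv11-2 shares 98.6% of compared bases with Ighv11-1 and Igkv4-78 has 32.4% unique stretches, while Igkv14-126, Igkv2-112, Ighv6-7 and Iglv3 have 100%.

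The members nearest to the count threshold were Igkv19-93, Igkv1-131 and Igkv4-83, with sums of 20, 22 and 24 counts over the 6 mice. Just outside it were Igkv1-35 with 18 and Ighv2-7 and Ighv8-11 with 17 each. None of these 6 segments reached a test.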

How the data were processed

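Bone marrow RNA of 3 MxCDX2 and 3 control mice was sequenced as stranded mRNA libraries. The authors aligned reads with STAR 2.5 to GRCm38, counted them per gene with HTSeq 0.6.1 and deposited raw counts, without normalization. HTSeq's strand setting is not given in the sources used here, and all tables report 0 reads with non-unique alignment, as files of uniquely aligned reads would, so reads shared by near-identical segments were probably not counted. Control numbers follow the order of the sample labels. Nothing says that the mice were handled in batches.

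Symbols, positions and transcript sequences came from GENCODE M21 (GRCm38), which held 37607 of the 39179 identifiers. Testing used edgeR 4.0.16 under R 4.3.3 (TMM, default filterByExpr, glmQLFit, glmQLFTest, Benjamini-Hochberg adjustment over all rows tested). For totals, member counts were replaced by their sum per locus or family and the whole table was fitted again. Thresholds follow the study's methods. Shares within a locus were raw counts over the locus total, compared by a two-sided exact permutation test, whose smallest p is 0.1. DESeq2 1.42.0 was an alternative, beside other scalings, filters and thresholds and each mouse left out. Shares and ratios were computed in Python 3.11.15 (scipy 1.17.1). Scripts were tested on simulated data.

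Segments named were the 5 most abundant Ighv and Igkv, all Iglv, the leading segment of each mouse, the 3 called ones with the lowest log2 fold change at a mean of at least 100 normalized counts, the 3 nearest to no change, and those around the count threshold. The other called segments were added after their values were seen. The members, lists and tests were chosen with earlier results of these data known. With at least 22307 counts per mouse for Ighv and 23035 for Igkv, the precision of these totals is limited by the spread between mice, while rare segments also carry counting error. A listed B cell marker is not reported by name, and the counts over its list include it.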

Additional observations from a re-analysis of the deposited data

How the results depend on the processing

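The lower calls among segments (8) became 21 with DESeq2, 1 at an adjusted p below 0.01, 5 with at least 10 counts in every mouse and 0 when tested against a fold of 2, and ranged from 1 to 13 when each mouse was left out. Over all tested genes, lower calls (1443) became 2025 with DESeq2, 1213 with at least 10 counts in every mouse and 372 against a fold of 2. With mice left out they ranged from 694 to 1482. Higher calls (0) became 1 with DESeq2, with every gene of at least 1 count and with total counts only, and ranged from 0 to 1 with mice left out. Families called lower (3) became 7 with DESeq2, 1 at the stricter adjusted p and 0 against a fold of 2 (1 to 6 with mice left out). Constant region genes called lower (2) became 1 and 0 under these last settings (1 to 3 with mice left out), and B-lineage genes (11) became 3 and 2 (3 to 15 with mice left out). The Iglv total (-1.01) lost its call with every gene of at least 1 count (-0.98) and total counts only (-0.89), at the stricter adjusted p and against a fold of 2 (both -1.01). With mice left out it ranged from -1.23 to -0.70, the Ighv total from -1.28 to 0.13 and the Igkv total from -1.41 to 0.077. Total counts moved the median log2 fold change of all genes to 0.12, and changes are relative to that.

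Usage differences were small and changed sign freely. For the effective number, Ighv went to -0.016 with segments of at least 1 count, -0.20 for expected segments at equal depth and -2.95 without each mouse's leading segment, and Igkv to -2.21 for expected segments. The share of the 10 leading Ighv segments differed by 0.80. With mice left out, the differences ranged from -1.92 to 1.80 for the Ighv effective number, -0.57 to 3.24 for the Igkv effective number, -4.75 to 0.12 for the largest Ighv share (percentage points), -2.61 to 0.049 for the largest Igkv share, -2.47 to 2.24 for the Ighv1 share, -2.43 to 0.36 for the lambda share, -0.0011 to 0.0522 for Igkv per Igkc count. Among named segments, log2 fold changes near 0 reversed: total counts gave 0.054 for Ighv3-6 and 0.12 for Igkv4-72, for which DESeq2 gave 0.0043 and every gene of at least 1 count 0.028. With mice left out the ranges were -1.46 to 0.60 for Ighv1-26, -1.40 to 0.28 for Ighv1-64, -0.35 to 0.52 for Ighv3-6, -1.31 to 0.23 for Igkv1-135, -1.17 to 0.38 for Igkv10-96, -1.10 to 1.10 for Igkv3-2, -0.37 to 0.56 for Igkv4-72, -2.01 to 1.03 for Igkv9-124. No paired analysis was possible because the control labels carry running sample numbers and 3 genotypes, not replicate numbers. Of the other comparisons of a reported count, total or usage difference with an alternative, 148 kept their direction and their side of the threshold, or stayed within the bounds for counts. The causes were not tested. Counting error adds to the spread between mice in the rare segments, such as those with count sums of 73 to 89.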

Other observations

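The D and J segments of these loci, which lie between the V segments and the constant regions, had few reads. Of the 29 found here, 10 were tested, and edgeR called 0 in either direction. At an unadjusted p below 0.05, 3 were lower and 0 higher, and DESeq2 also called 3 lower and 0 higher. The kappa J segments had log2 fold changes of -1.09 to -1.72, with Igkj5 at 318, 322 and 133 normalized counts in the control mice and 128, 42.1 and 63.5 in the MxCDX2 mice (edgeR adjusted p = 0.0604). The heavy chain J segments lay on the other side of 0, with Ighj1 at 67.7, 94.3 and 207 against 135, 329 and 178 (log2 fold change 0.79, edgeR adjusted p = 0.324), and MxCDX2 mouse 2 had the highest value for all 4 of them. Ighe, the IgE heavy chain, had 10.2, 8.94 and 8.21 normalized counts in the control mice and 46.6, 20.6 and 11.3 in the MxCDX2 mice (log2 fold change 1.50, edgeR adjusted p = 0.111).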
